A study of Homo sapiens with 12 samples.

Results

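A set of 9 genes of the MHC class I antigen presentation pathway was followed through 12 RNA-seq libraries from 2 squamous carcinoma lines with silenced or over-expressed KLF5. The genes were chosen by symbol as a fixed set of 9 of the 57820 genes listed: HLA-B, HLA-C and HLA-E, B2M, TAP1, TAP2, TAPBP, PSMB8 and PSMB9. All 9 passed the filters on low values in both lines. BICR31, a head and neck squamous carcinoma line, had received siKLF5, an siRNA that silences KLF5 (3 libraries), or siNC, a negative-control siRNA (3 libraries). HCC95, a lung squamous carcinoma line, over-expressed an empty vector (Empty, 2 libraries), wild-type KLF5 (WT, 2 libraries) or the substituted form KLF5 E419Q (2 libraries), in each case on top of the line's own KLF5. Each line stands for 1 tumour, and neither the siRNA's target site nor the expression vector nor the harvest time is given in the sources used here. The labels name replicates by letter and do not say that they came from separate cultures, so each p-value rests on a spread between libraries that may be purely technical.

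MHC class I molecules show peptides from inside the cell to cytotoxic T cells and, through HLA-E and related molecules, to natural killer cells. The proteasome cuts proteins into peptides, and interferon swaps its catalytic subunits for inducible ones, PSMB8 and PSMB9 among them, to form the immunoproteasome. The TAP1 and TAP2 transporter carries the peptides into the endoplasmic reticulum, tapasin (TAPBP) holds the empty heavy chain next to it for loading, and the loaded heavy chain travels to the surface with beta-2-microglobulin (B2M). Interferon signalling through IRF1, NF-kB, and the coactivator NLRC5 are the best known inducers of these genes, and tumours often lower them. KLF5 is a zinc-finger transcription factor of basal and squamous epithelium that binds GC-rich and CACCC sequences.

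KLF5 itself followed the labels. Its deposited signal was 986, 1008 and 882 units in the siKLF5 libraries and 2682, 2289 and 2619.6 units in the siNC libraries, and its counts-per-million values (CPM, relative to the library total) were 149.9 and 136 in Empty, 420.0 and 404 in WT, and 427 and 442 in E419Q. The BICR31 libraries held an estimated 1.92e+06 to 2.30e+06 counts and the HCC95 libraries 3.07e+06 to 4.64e+06, so that 3 counts correspond to 23.6 to 27.4 units or 0.646 to 0.976 CPM, far below every one of the 9 genes. All 7 squamous markers were present in every group, and their summed level was lower with siKLF5 (80910 to 83645 units, siNC 102752 to 105404), higher with WT (18168 to 18804 CPM, Empty 15985 to 16449) and lower with E419Q (12676 to 13260 CPM). KRT5 made up most of the HCC95 sum, and the single markers moved both ways: with E419Q against Empty, edgeR called 4 of the 7 raised (CDH1, TP63, EPCAM and KRT14) and 3 lowered (KRT5, KRT6A and DSG3). With siKLF5, limma called 2 of the 7 raised and 4 lowered. KRT5, the largest part of the BICR31 sum, had 42612 to 44771 units with siKLF5 and 65982 to 68627 with siNC. CDH1 was higher, at 24297 to 26292 units against 14045.5 to 14598, as was DSG3, at 2787 to 3007 against 1600 to 1641. Of 11 leukocyte markers, CD3E, CD3D, MS4A1 and FCGR3A were among those at 0 in every group, and the summed level was 308 to 450.3 units with siKLF5, 154 to 273 units with siNC and at most 3.98 CPM in HCC95. In BICR31, 58.7% of the called genes rose, a share that became 48.5% after quantile normalisation (2005 raised, 2129 lowered); no scaling moved the median over all genes by more than 0.1 on the log2 scale.

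The promoters of 6 members on which the results turn are shown because class I genes are known for carrying interferon and NF-kB elements close to the start. The sequences are the 250 bases before the annotated start, from RefSeq on GRCh38.p14, 5′ to 3′ on the gene's own strand; the deposited values were made on hg19. Capitals mark matches, on either strand, to the interferon-stimulated response element (GAAA, any 2 bases, GAAA), its shorter form (GAA, any 2 bases, GAAA) or the NF-kB motif, and overlapping matches run together. The windows are HLA-B at chr6:31357180-31357429 (minus strand), HLA-C at chr6:31272093-31272342 (minus), B2M at chr15:44711267-44711516 (plus), TAPBP at chr6:33314079-33314328 (minus), TAP1 at its first listed start, chr6:32853705-32853954 (minus), and PSMB9 at chr6:32853942-32854191 (plus).
HLA-B: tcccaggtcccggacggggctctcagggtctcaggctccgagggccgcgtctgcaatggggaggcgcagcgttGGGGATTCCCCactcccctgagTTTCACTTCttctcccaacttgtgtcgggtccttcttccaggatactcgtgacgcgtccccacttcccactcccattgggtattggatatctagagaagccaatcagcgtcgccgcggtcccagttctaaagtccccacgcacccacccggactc
HLA-C: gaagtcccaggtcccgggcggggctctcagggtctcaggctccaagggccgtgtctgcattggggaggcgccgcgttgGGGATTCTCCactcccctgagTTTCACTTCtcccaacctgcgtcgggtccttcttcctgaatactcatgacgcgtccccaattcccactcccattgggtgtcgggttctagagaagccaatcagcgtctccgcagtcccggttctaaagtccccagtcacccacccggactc
B2M: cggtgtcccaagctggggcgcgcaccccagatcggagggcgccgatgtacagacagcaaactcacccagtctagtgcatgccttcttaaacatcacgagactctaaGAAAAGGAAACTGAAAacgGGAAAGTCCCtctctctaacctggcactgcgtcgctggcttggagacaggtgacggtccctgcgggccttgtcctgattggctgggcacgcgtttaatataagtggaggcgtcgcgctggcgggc
TAPBP: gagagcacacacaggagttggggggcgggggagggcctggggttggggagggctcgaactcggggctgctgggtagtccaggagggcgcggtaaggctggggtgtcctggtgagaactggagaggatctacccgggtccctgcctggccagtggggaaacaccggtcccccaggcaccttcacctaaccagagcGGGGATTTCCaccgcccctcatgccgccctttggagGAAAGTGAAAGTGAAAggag
TAP1: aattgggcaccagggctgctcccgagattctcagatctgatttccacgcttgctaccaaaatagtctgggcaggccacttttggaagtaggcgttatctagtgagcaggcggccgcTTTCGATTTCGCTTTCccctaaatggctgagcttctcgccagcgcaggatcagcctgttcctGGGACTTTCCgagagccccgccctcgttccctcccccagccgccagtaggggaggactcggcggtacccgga
PSMB9: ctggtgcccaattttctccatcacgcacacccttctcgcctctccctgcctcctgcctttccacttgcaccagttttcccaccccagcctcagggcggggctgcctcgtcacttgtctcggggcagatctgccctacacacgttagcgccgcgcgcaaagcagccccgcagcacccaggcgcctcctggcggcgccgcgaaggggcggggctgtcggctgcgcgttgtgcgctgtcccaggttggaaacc

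The RefSeq table held 10 start windows for 8 of the 9 genes, each reaching from 250 bases before to 50 bases after the start; HLA-E was not among them. The full interferon element lay in 5 of the 10 windows (B2M, the second PSMB8 start, the first TAP1 start, TAP2 and TAPBP) and in 3.57% of all 35116 RefSeq windows of that length. The shorter form lay in 4 (HLA-B, HLA-C, the second PSMB8 start and TAP2) against 7.66% of all windows. An NF-kB motif lay in 5 (B2M, HLA-B, HLA-C, the first TAP1 start and TAPBP) against 5.91%. The letters that KLF factors prefer were common everywhere: GGGCGG lay in 8 of the 10 windows and in 45.0% of all windows, and CACCC in 6 and in 59.9%. The HLA-B and HLA-C windows were 88.5% identical (269 of 304 aligned positions). TAP1 and PSMB9 are neighbours read in opposite directions from starts 488 bases apart, and their printed windows share 13 bases; PSMB9's window held neither form of the interferon element nor an NF-kB match.

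Levels of different genes can be compared only per length. In the HCC95 Empty libraries, B2M had the highest level at 1448 ± 6.11 TPM (transcripts-per-million; SD, n = 2), followed by HLA-B (514 ± 26.4), HLA-C (418 ± 33.0), HLA-E (185 ± 10), TAPBP (163 ± 12.1), TAP2 (141 ± 16.8) and PSMB8 (86.0 ± 0.0354). TAP1 (65.7 ± 4.47 TPM) and PSMB9 (61.1 ± 9.47 TPM) closed the order, and their libraries overlapped. With WT, PSMB9 (94.9 ± 2.63 TPM) stood above TAP1 (62.0 ± 2.29 TPM) without overlap, while TAPBP and HLA-E overlapped. With E419Q, HLA-B (348 ± 52.4 TPM) overlapped HLA-C (380.1 ± 4.59 TPM), which it had exceeded without overlap in Empty and in WT, and TAP2 overlapped PSMB8. In BICR31 siNC the order in signal per kilobase was led by B2M (23533 ± 715), HLA-C (12626 ± 358), HLA-B (6813 ± 209.9) and TAPBP (2077 ± 77.4), so HLA-C stood above HLA-B there. PSMB9, TAP2, HLA-E and PSMB8 followed, each overlapping the next, and TAP1 was lowest in both BICR31 groups.

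Knockdown of KLF5 in BICR31 was accompanied by higher RNA of most of the pathway. Of the 9 genes, 7 rose (limma, Benjamini-Hochberg adjusted p from 5.32e-09 to 0.00278), by 1.27-fold (TAP1) to 1.65-fold (TAPBP), where 15.3% of the 15710 genes tested rose and 26.1% were called in either direction. These shares take in genes of very few counts, unlike the 9. Over the 11247 genes averaging at least 100 units, 2466 rose and 4276 were called in either direction, with 7 of the 9 again raised. The median log2 fold change was 0.54 over the 9 genes and 0.04 over all genes tested. The same 7 genes had no overlap between the groups, which held in this direction for 22.4% of all genes. The remaining 2, PSMB9 and TAP2, were not called. Markers of other cell types moved with the same groups: 5 fibroblast markers summed to 1915 to 2227 units with siKLF5 and 873 to 967 with siNC (COL1A1 and COL1A2 were called, DCN was at 0 with siKLF5), and 3 endothelial markers to 268 to 427 and 164 to 246 units. Their part in the result, like that of the leukocyte markers, was not tested. In bulk RNA, fewer cells of a type and less RNA per cell cannot be told apart.

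**Figure D1:**
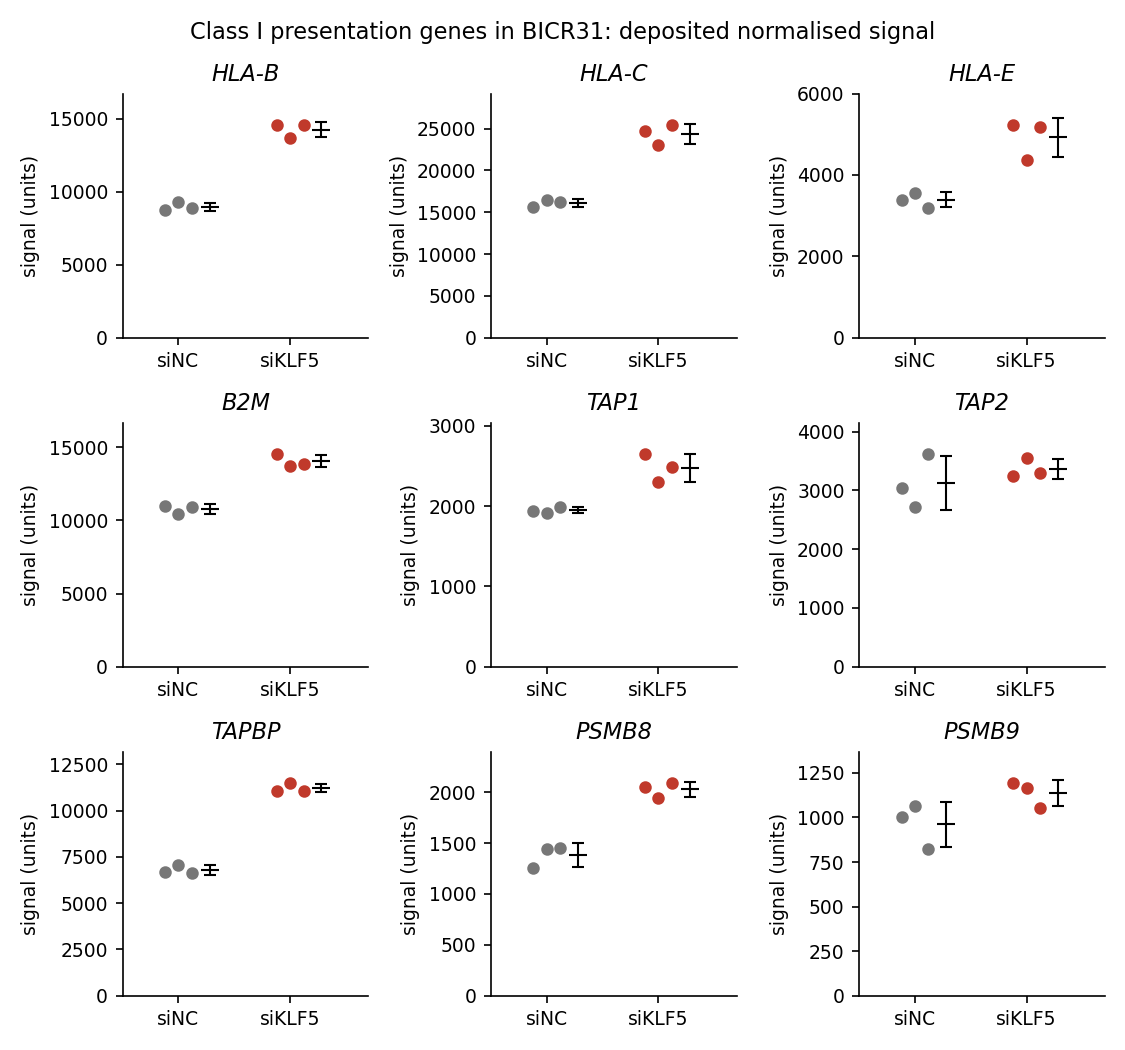
Deposited normalised signal (units, linear axis from 0) of the 9 genes in BICR31; each point is a library, grey for siNC and red for siKLF5, and the bars give mean ± SD of 3 libraries. For TAPBP, the siKLF5 libraries lie at 11071 to 11475 units and the siNC libraries at 6612 to 7085, while TAP2 and PSMB9 overlap.

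Among the heavy chains, which bind the peptide, HLA-B signal was 14556, 13671 and 14559 units with siKLF5 and 8729, 9271 and 8907 units with siNC. Every siKLF5 library was above every siNC library, and the log2 fold change was 0.67 (SE 0.045, limma adjusted p = 7.68e-09). HLA-C signal was 24695, 23032 and 25399 units against 15585, 16459 and 16247 units, again with separate groups (log2 fold change 0.60, SE 0.041, limma adjusted p = 1.27e-08). HLA-E, the ligand of the CD94/NKG2 receptors of natural killer cells, had 5218, 4375 and 5182 units against 3391, 3565 and 3198 units. Its library siKLF5 B was the lowest of the knockdown group and still above all controls (log2 fold change 0.54, SE 0.073, limma adjusted p = 3.01e-05). HLA-F, a heavy chain outside the set, rose by 1.06 on the log2 scale (SE 0.156, limma adjusted p = 7.21e-05). The heavy chains are close paralogues whose reads the counting could split, so each single value is uncertain; summed over the class I heavy chains, the signal still rose by 0.63 (limma).

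B2M, the light chain that every class I molecule needs, had 14511, 13717 and 13874 units with siKLF5 and 11000.0, 10404 and 10939 units with siNC. The groups were separate, and the rise of 0.38 on the log2 scale (SE 0.043, limma adjusted p = 4.11e-06) was smaller than that of the 3 heavy chains. In the loading complex, TAPBP had the largest change of the 9, with 11084, 11475 and 11071 units against 6691, 7085 and 6612 units (log2 fold change 0.72, SE 0.047, limma adjusted p = 5.32e-09). TAP1 had 2643, 2296 and 2490.0 units against 1943, 1911 and 1993 units, a smaller but separate rise (log2 fold change 0.34, SE 0.076, limma adjusted p = 0.00278). Without the mean-variance trend in the limma fit, its adjusted p was 0.0570, the one loss of a call among the 7 under any alternative tried. TAP2, the partner of TAP1 in the transporter, had 3249.9, 3555 and 3291 units against 3040.3, 2717 and 3614 units; the highest library of all was siNC C, and the groups overlapped (log2 fold change 0.12, 95% interval -0.07 to 0.30, limma adjusted p = 0.368).

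The immunoproteasome subunits differed from each other in BICR31 in what passed the test. PSMB8 had 2054, 1938 and 2087 units with siKLF5 and 1251, 1441 and 1455 units with siNC, with separate groups (log2 fold change 0.55, SE 0.087, limma adjusted p = 1.34e-04). PSMB9 had 1191, 1167 and 1055 units against 1000, 1067 and 822 units, and library siKLF5 C lay below siNC B (log2 fold change 0.25, 95% interval 0.01 to 0.49, limma adjusted p = 0.126). Whether PSMB8 and PSMB9 differ in their change was not tested. PSMB10, another inducible subunit and no member of the set, rose by 0.83 (SE 0.076, limma adjusted p = 4.12e-07). Their constitutive counterparts PSMB5, PSMB6 and PSMB7 were not called, with log2 fold changes of 0.09, 0.06 and 0.15. Per length, PSMB8 stood at 60.0% of PSMB5 with siKLF5 (58.2% to 62.1% over the libraries) and at 43.8% with siNC (39.9% to 49.2%), and PSMB10 at 54.5% of PSMB7 against 34.1%. PSMB9 stood at 38.4% of PSMB6 with siKLF5 (36.8% to 39.3%) and at 33.8% with siNC (31.2% to 35.7%).

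The genes around the set in BICR31 were counted in lists, and 15.3% of all genes tested rose. All 10 peptide loading and trimming genes rose (limma, median log2 fold change 0.42 against 0.04 over all genes), with the smallest adjusted p for HSPA5 (0.45, adjusted p = 1.30e-07) and CALR (0.38, adjusted p = 7.35e-07), which are chaperones of the endoplasmic reticulum, and for NPEPPS (0.69, adjusted p = 8.15e-07) and ERAP1 (0.68, adjusted p = 5.37e-06), which are aminopeptidases. Of the 14 constitutive 20S proteasome genes only PSMA4 (0.29, limma adjusted p = 0.00321) and PSMA6 (0.19, adjusted p = 0.00814) rose, with a list median of 0.05. Of 18 tested regulators of class I transcription, 6 rose in limma, among them IRF1 (0.61, SE 0.091, adjusted p = 8.63e-05), STAT2 (0.54, adjusted p = 0.00131), NFKB1 (0.39, adjusted p = 0.00373) and IRF9 (0.97, adjusted p = 0.00763). NLRC5, the class I coactivator, was not called (0.17, 95% interval -0.20 to 0.55, limma adjusted p = 0.525). Among 13 genes of interferon reception, 4 rose in limma: the receptor chains IFNGR2 (1.01, adjusted p = 3.96e-06), IFNAR1 (0.58, adjusted p = 5.28e-05) and IFNGR1 (0.51, adjusted p = 0.00112), and the kinase JAK1 (0.46, adjusted p = 1.86e-04).

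Interferon-stimulated genes outside the pathway moved in the same samples. Of 30 tested in BICR31, 18 rose in limma (median log2 fold change 0.76), among them GBP2, an interferon-induced GTPase, with 580.1 ± 26.5 units against 72.6 ± 32.8 (SD, n = 3), and the chemokine CXCL10 with 705 ± 176 units against 60.5 ± 29.1. IFITM3, a membrane protein that restricts virus entry, rose by 0.54 on the log2 scale (limma adjusted p = 4.54e-06) and GBP3 by 0.95 (adjusted p = 5.87e-06). None of the 7 interferon genes listed (IFNB1, IFNL1, IFNL2, IFNL3, IFNG, IFNK and IFNE) reached the filter; IFNE reached at most 1 count in any of the 12 libraries and the other 6 were at 0.

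**Figure D2:**
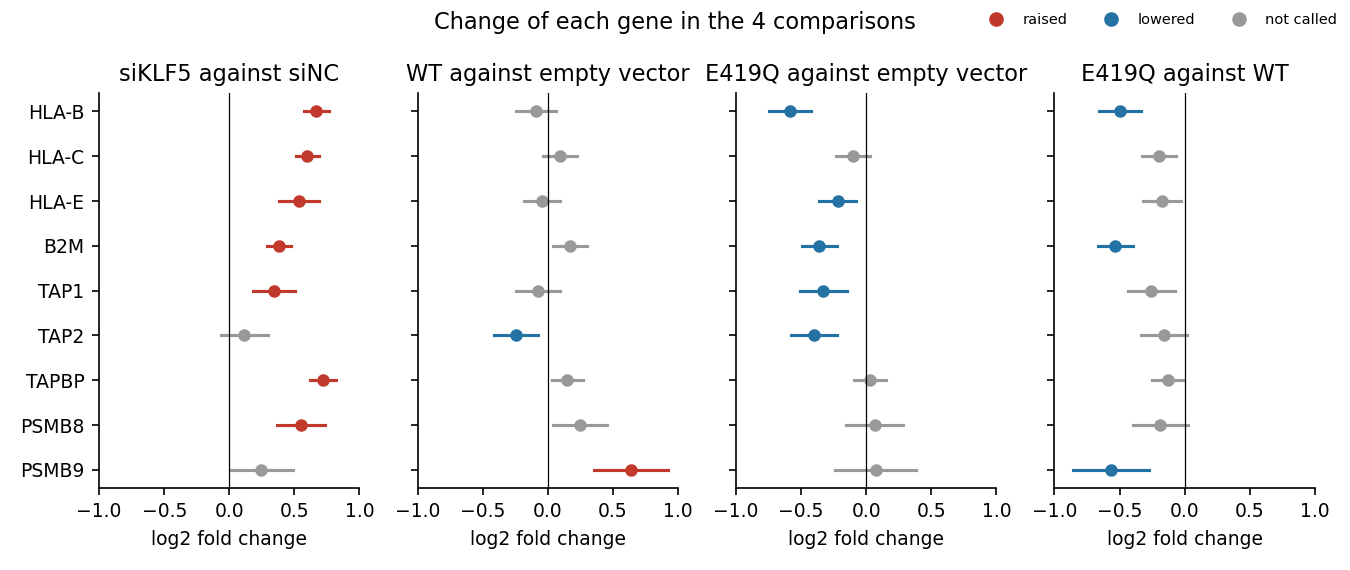
Log2 fold change of the 9 genes in the 4 comparisons; points are estimates, lines 95% intervals, and red, blue and grey mark raised, lowered and not called at an adjusted p under 0.05 (limma for siKLF5, edgeR for the others). HLA-B stands at 0.67 with siKLF5, -0.09 with WT and -0.58 with E419Q, and all 9 estimates lie below 0 for E419Q against WT.

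Wild-type KLF5 in HCC95 came with changes in 2 of the 9 genes, a share close to that of all genes tested. PSMB9 rose 1.56-fold and TAP2 fell, and the other 7 were not called, where 22.9% of the 12933 genes tested were called (10.8% raised, 12.1% lowered; edgeR quasi-likelihood, adjusted p under 0.05). The median log2 fold change was 0.10 over the 9 genes and 0.00 over all genes tested. The WT and E419Q comparisons with Empty share the same 2 Empty libraries, so their values are given side by side and not as independent evidence.

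**Figure D3:**
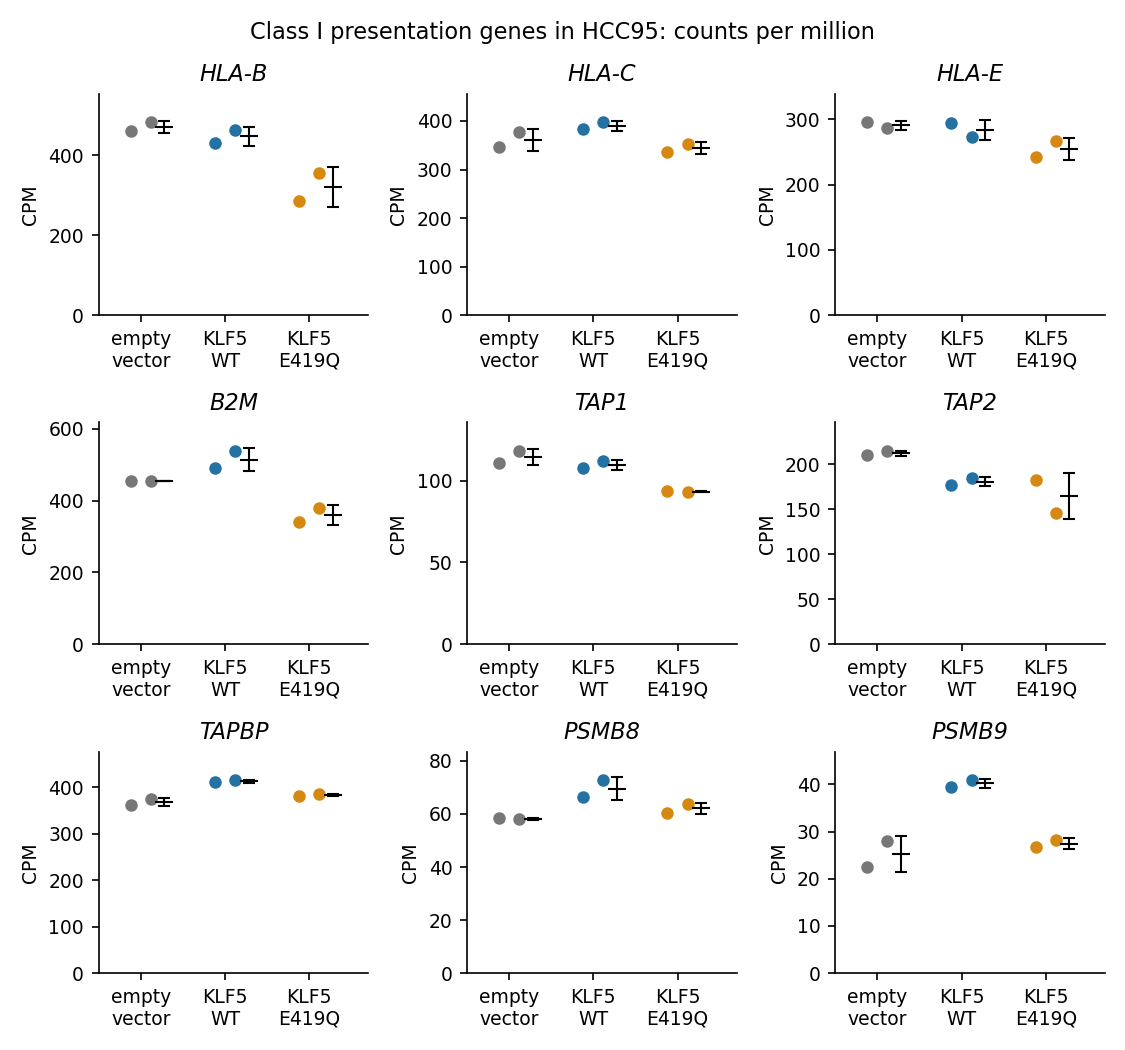
CPM (linear axis from 0) of the 9 genes in HCC95; each point is a library, grey for Empty, blue for WT and orange for E419Q, and the bars give mean ± SD of 2 libraries. PSMB9 stands at 39.5 and 40.8 CPM with WT and at 22.6 to 28.2 CPM in the other 4 libraries, and HLA-B at 285 and 357 CPM with E419Q and at 431 to 482 CPM in the others.

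PSMB9 had 22.6 and 28 CPM in Empty, 39.5 and 40.8 CPM in WT, and 26.7 and 28.2 CPM in E419Q. Only the WT libraries stood apart, and the log2 fold change against Empty was 0.64 (SE 0.136, edgeR adjusted p = 0.00151). DESeq2 gave an adjusted p of 0.120 for it, the one alternative of 13 in which this call was lost. PSMB8 had 58.5 and 57.9 CPM in Empty and 66.5 and 72.6 CPM in WT, separate but not called (log2 fold change 0.25, 95% interval 0.04 to 0.46, edgeR adjusted p = 0.0738). Per length, PSMB9 stood at 30.1% of its constitutive counterpart PSMB6 in Empty (25.6% and 34.6% in the libraries), at 57.1% in WT (53.1% and 61.1%) and at 36.6% in E419Q (33.4% and 39.9%). PSMB6 itself was lower in both WT libraries than in Empty without being called (edgeR log2 fold change -0.28, adjusted p = 0.0621), which adds to the WT ratio. PSMB8 stood at 45.3% of PSMB5 in Empty, 66.8% in WT and 63.6% in E419Q, and PSMB5 itself was lowered in both (edgeR log2 fold changes -0.28, adjusted p = 0.0136, and -0.31, adjusted p = 0.00767). PSMB10 stood at 26.7%, 20.1% and 18.8% of PSMB7 in Empty, WT and E419Q.

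TAP2 had 210.0 and 214 CPM in Empty, 177 and 184 CPM in WT, and 183 and 146 CPM in E419Q. Both Empty libraries were above all others (WT against Empty log2 fold change -0.24, SE 0.082, edgeR adjusted p = 0.0349). This call was lost without any one of the 4 libraries compared (adjusted p from 0.0573 without Empty A to 0.185 without WT A), with DESeq2 (0.226) and with upper-quartile scaling (0.0721). The files list a second row under the symbol TAP2 (ENSG00000250264.1), with 18 and 26.7 CPM in Empty, 20 and 15.2 in WT, and 0 and 28.6 in E419Q; it was called in no comparison. With both rows summed, TAP2 fell by 0.26 with WT (edgeR adjusted p = 0.00813) and by 0.42 with E419Q (edgeR adjusted p = 1.00e-04) against Empty.

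Among the genes not called with WT, B2M had 454 CPM in both Empty libraries and 492 and 537 CPM in WT (log2 fold change 0.17, 95% interval 0.04 to 0.30, edgeR adjusted p = 0.0523). TAPBP had 362 and 374 CPM in Empty and 410.5 and 414 CPM in WT (0.15, 95% interval 0.03 to 0.27, edgeR adjusted p = 0.0622). Both were separate between the groups without passing the threshold; with upper-quartile scaling they did pass, with edgeR adjusted p of 0.0186 and 0.0210, as did PSMB8 (0.0394). The heavy chains HLA-B (-0.09, 95% interval -0.24 to 0.07), HLA-C (0.10, -0.03 to 0.22) and HLA-E (-0.05, -0.18 to 0.09) and the transporter chain TAP1 (-0.07, -0.24 to 0.09) had log2 intervals that include 0.

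KLF5 E419Q in HCC95 came with lower RNA of 5 of the 9 genes: HLA-B, HLA-E, B2M, TAP1 and TAP2. They fell by 0.22 to 0.58 on the log2 scale against Empty (edgeR adjusted p from 6.66e-06 to 0.0241), where 10.8% of all genes tested fell and 21.2% were called in either direction. The median log2 fold change was -0.22 over the 9 genes and 0.00 over all genes tested. HLA-C, TAPBP, PSMB8 and PSMB9 were not called. The 3 endothelial markers summed to 26.3 to 28.5 CPM with E419Q and 11.4 to 14.2 CPM in Empty, VWF making up the difference and KDR being at 0, and the 5 fibroblast markers to 12 to 16.6 and 10.6 to 11.6 CPM, with DCN at 0 in E419Q and COL1A2 at 0 in Empty. Their part in the result was not tested.

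HLA-B had 460.3 and 482 CPM in Empty, 431 and 463 CPM in WT, and 285 and 357 CPM in E419Q. Both E419Q libraries were below the other 4, at 0.667 of the Empty level in the fit (log2 fold change -0.58, SE 0.077, edgeR adjusted p = 6.66e-06). B2M had 341 and 379.5 CPM in E419Q, again below the 454 CPM of both Empty libraries (log2 fold change -0.36, SE 0.065, edgeR adjusted p = 2.68e-04). The calls of HLA-B and B2M held in every alternative tried, in the comparison with Empty and in that with WT. HLA-C, the heavy chain most like HLA-B, had 345 and 377 CPM in Empty and 336 and 353 CPM in E419Q, with overlapping groups (-0.10, 95% interval -0.23 to 0.03, edgeR adjusted p = 0.296). Summed over the class I heavy chains, counts fell by 0.30 (edgeR adjusted p = 3.07e-04).

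TAP1 had 111 and 118 CPM in Empty and 93.7 and 93.0 CPM in E419Q, with separate groups (log2 fold change -0.33, SE 0.086, edgeR adjusted p = 0.00759). TAP2, with the values above, fell by 0.40 (SE 0.084, edgeR adjusted p = 0.00136), and HLA-E, with 295 and 286 CPM in Empty and 242 and 267 CPM in E419Q, by 0.22 (SE 0.068, edgeR adjusted p = 0.0241). Each of these 3 calls was lost with at least 1 library left out, a fit that leaves 1 library in a group. The log2 fold change of TAP1 was then -0.34, -0.32 and -0.29 without E419Q A, E419Q B and Empty B. That of TAP2 was -0.24 without E419Q B. HLA-E stood at -0.16 and -0.20 without E419Q A and Empty A. With DESeq2, TAP1 (0.185) and HLA-E (0.180) were not called either. TAPBP had 381 and 385 CPM in E419Q, just above both Empty libraries (log2 fold change 0.03, 95% interval -0.10 to 0.15), and PSMB8 60.5 and 63.6 CPM (0.06, -0.15 to 0.28).

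The direct comparison of E419Q with WT asks whether the 2 forms of KLF5 differ. KLF5 RNA itself differed by 0.06 on the log2 scale (edgeR adjusted p = 0.683). All 9 genes had a negative log2 fold change, with a median of -0.19 over the 9 and 0.00 over all genes tested. 3 genes passed the test, B2M, HLA-B and PSMB9, where 3.59% of all genes were lowered. In 8 of the 9, TAP2 being the exception, both E419Q libraries lay below both WT libraries, which held for 21.9% of all genes.

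B2M was 0.692 of its WT level (log2 fold change -0.53, SE 0.064, edgeR adjusted p = 4.38e-06) and HLA-B 0.710 (-0.49, SE 0.077, edgeR adjusted p = 1.20e-04). For B2M, WT lay above Empty and E419Q below it; for HLA-B, WT and Empty overlapped and E419Q lay below both. PSMB9 was 0.675 of its WT level (-0.57, SE 0.141, edgeR adjusted p = 0.0118). Its call was lost without any one of the 4 libraries compared (edgeR adjusted p 0.116 without E419Q A, 0.0742 without E419Q B, 0.0574 without WT A and 0.100 without WT B) and with DESeq2 (0.501). HLA-C (-0.19, 95% interval -0.33 to -0.06, edgeR adjusted p = 0.0649) and TAP1 (-0.25, -0.44 to -0.07, edgeR adjusted p = 0.0815) came next without passing, followed by HLA-E (-0.17), PSMB8 (-0.19), TAP2 (-0.16) and TAPBP (-0.13).

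Around the set in HCC95, the loading and trimming list split. Over all genes tested, 10.8% rose and 12.1% fell with WT, and 10.8% fell with E419Q. With WT, 3 of its 10 genes rose and 3 fell in edgeR; the trimming aminopeptidases ERAP2 (0.96, SE 0.122, adjusted p = 4.65e-06) and LNPEP (0.54, SE 0.082, adjusted p = 4.67e-05) rose, and CANX (-0.30, adjusted p = 1.42e-04) and SEC61A1 (-0.37, adjusted p = 2.39e-04), a chaperone and the protein channel of the endoplasmic reticulum, fell. E419Q shared the lower CANX (-0.23, edgeR adjusted p = 0.00192) and SEC61A1 (-0.28, adjusted p = 0.00356) against the same Empty libraries, while ERAP2 (0.27, adjusted p = 0.174) and LNPEP (0.03, adjusted p = 0.836) were not called. Tested directly, E419Q was below WT for LNPEP (-0.50, edgeR adjusted p = 2.61e-04), ERAP2 (-0.69, adjusted p = 5.11e-04) and ERAP1 (-0.32, adjusted p = 0.00893), and above it for NPEPPS (0.44, adjusted p = 9.63e-04). Of the 14 constitutive 20S genes, 7 fell with WT in edgeR (list median -0.26), with the smallest adjusted p for PSMB2 (-0.43, adjusted p = 1.28e-04) and PSMA7 (-0.33, adjusted p = 0.00102), and 3 with E419Q (list median -0.17). PSME3, a nuclear proteasome activator, fell with both (-0.52 and -0.55, edgeR adjusted p = 7.18e-06 and 3.71e-06).

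Of the 19 regulators in HCC95, 2 rose and 2 fell with WT and 3 rose with E419Q in edgeR. Over all genes tested, 22.9% were called with WT and 21.2% with E419Q, so these counts do not exceed the share of all genes. Among the regulators, NFKB1 fell with WT (-0.45, edgeR adjusted p = 0.00593) and STAT2 rose with E419Q (0.64, edgeR adjusted p = 0.00243). IRF1 had 33.4 and 28.4 CPM in Empty, 42.8 and 39.1 CPM in WT, and 31.5 and 26.7 CPM in E419Q, so that its WT libraries stood above the other 4. It rose with WT (0.41, SE 0.134, edgeR adjusted p = 0.0302), was not called with E419Q (-0.10, 95% interval -0.41 to 0.20, edgeR adjusted p = 0.680), and was lower in E419Q than in WT (-0.51, SE 0.141, edgeR adjusted p = 0.0250). NLRC5 lay at 5.05 to 12.3 CPM over the 6 libraries and was called in no HCC95 comparison. Of the 13 genes of interferon reception, 3 rose and 1 fell with WT, and 2 rose and 1 fell with E419Q in edgeR. IFNAR1 was among those that rose with E419Q (0.46, edgeR adjusted p = 0.00491). The interferon-gamma receptor chain IFNGR1 fell with E419Q (-0.61, SE 0.128, edgeR adjusted p = 0.00127) and lay below WT (-0.55, SE 0.131, edgeR adjusted p = 0.00874). Of 22 interferon-stimulated genes tested in HCC95, 2 rose and 2 fell with WT and 2 fell with E419Q in edgeR (IFITM3, -0.73, and CD274, -1.32). These counts too lay below the shares of all genes called. The list medians were 0.15 with WT and 0.14 with E419Q.

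**Figure D4:**
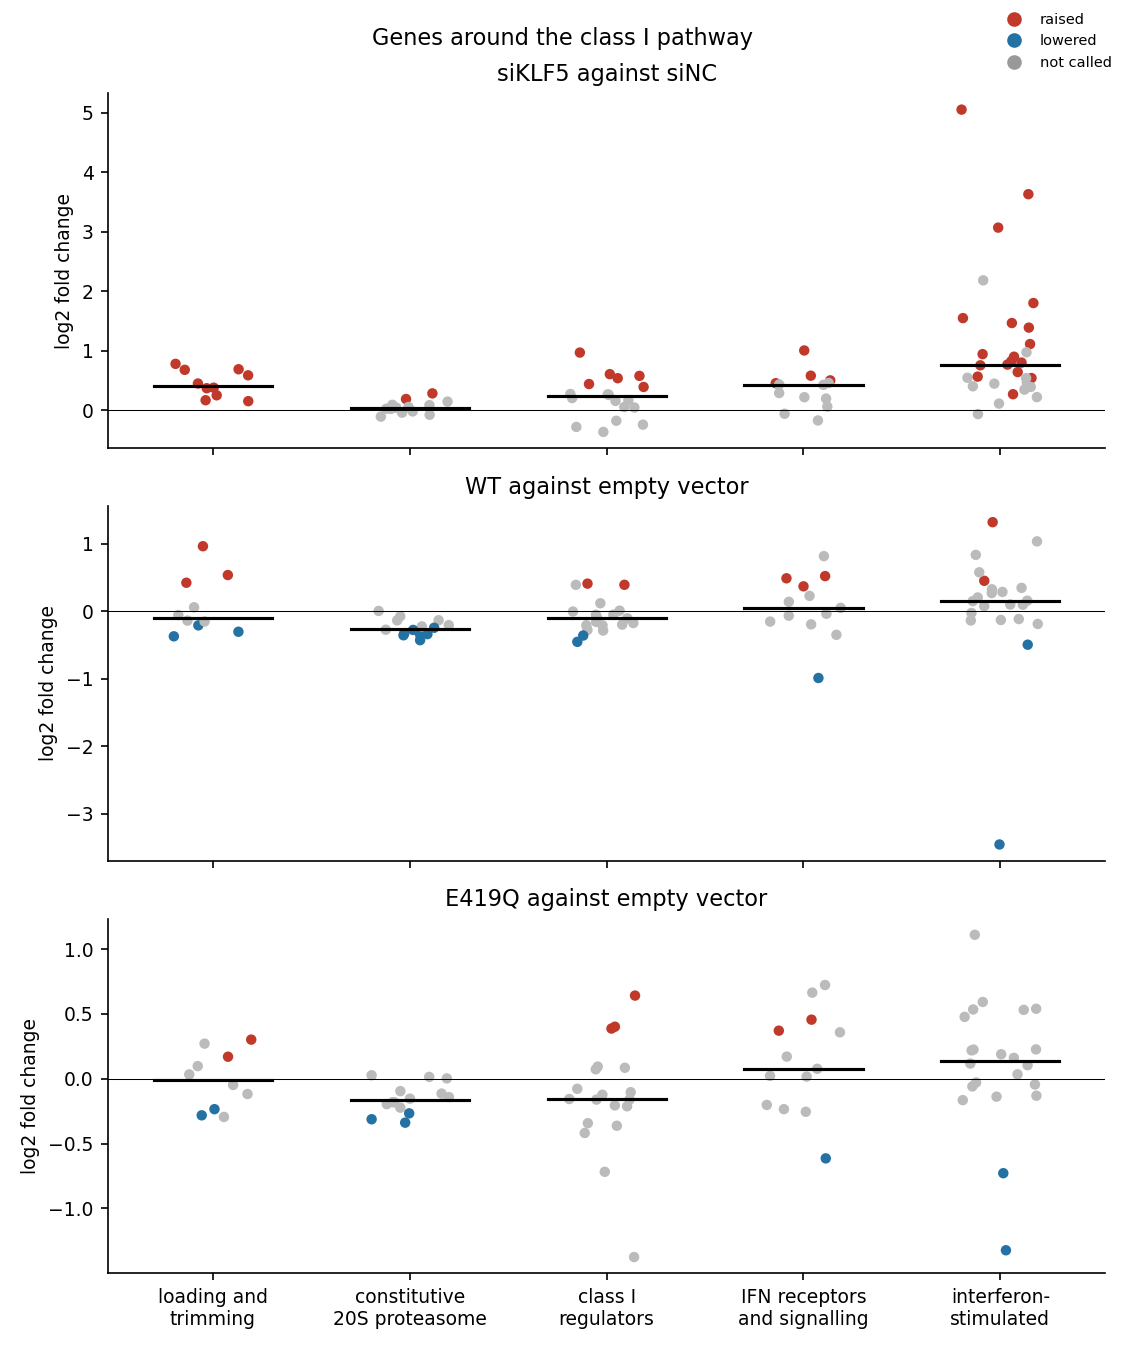
Log2 fold change of the genes around the class I set in 3 comparisons; each point is a gene, coloured red (raised), blue (lowered) or grey (not called) at an adjusted p under 0.05, and black bars are list medians. The interferon-stimulated list has a median of 0.76 with siKLF5, 0.15 with WT and 0.14 with E419Q; the vertical axes differ between panels.

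The genes most like the set were ranked by Pearson correlation over the 12 libraries of log2 values centred within each cell line, among 11397 genes tested in both lines. Closest to the mean of the 9 genes were MMP10 (r = 0.967), LGALS3 (0.965), DUSP16 (0.965), MPZL2 (0.964) and TES (0.962), and closest to TAP1 alone were LTBP1 (0.964), HOOK3 (0.963), MUC4 (0.959), PINK1 (0.954) and ASS1 (0.952). These values describe libraries that share cell line, treatment and depth, and they carry no test. IRF1 had r = 0.851 with the mean of the 9 genes and 0.734 with TAP1.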

How the data were processed

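Poly(A) RNA was sequenced in 6 BICR31 and 6 HCC95 libraries, all of established cell lines. The submitters' processing notes name STAR, RSEM and hg19, and for HCC95 also edgeR and limma, without versions. The HCC95 files hold expected counts per gene from RSEM, per the file headers, which were rounded to whole numbers. Their TPM values, deposited by the authors beside the counts, served to compare genes. The BICR31 files hold a normalised signal per gene, deposited by the authors without its scale or the unit of its steps; its steps gave whole numbers within 0.02 for 81.4% to 82.5% of values, from which the depths were estimated. The floors of 3 counts cover counting error only.

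BICR31 was tested with limma 3.58.1 on log2(signal + 1) over the 15710 genes averaging 10 units or more, so that its fold changes are on that scale. HCC95 was tested with edgeR 4.0.16 (quasi-likelihood, TMM, filterByExpr, all 6 libraries sharing 1 estimate of the spread) over 12933 genes. Tests were two-sided and adjusted over all genes by Benjamini-Hochberg, at a threshold of 0.05. In simulated counts with known changes, 65.7% (siKLF5), 70.1% (WT), 74.6% (E419Q) and 64.2% (E419Q against WT) of 1.5-fold changes were called. The simulation changed 200 genes, none of them at low counts, and gave all genes 1 spread. The real comparisons called more genes, so these rates need not hold for them. Where a symbol had several rows, the row with the highest mean was used. Libraries of 1 group differed by 1.24 to 1.83 in chi-square over degrees of freedom and libraries of different groups by 5.39 to 9.12. None were counted as 1, though these values cannot tell separate cultures from repeats of 1 culture. Signal per kilobase used the effective lengths in the HCC95 files.

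The members and lists were chosen with earlier results of these data known. The 9 members, KLF5, IRF1, NLRC5, PSMB10, PSMB5, PSMB6 and PSMB7 were named whatever their p, and from each list up to 4 called genes per comparison with the smallest adjusted p; a few other genes are not reported here. Other scalings, filters, pseudocounts, DESeq2 1.42.0 and each library left out were tried. Summing both TAP2 rows and running edgeR on the estimated BICR31 counts (4422 genes called, against 4097 in limma) were chosen after seeing the data.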

Additional observations from a re-analysis of the deposited data

Results flagged for a closer look

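Of the 9 genes, 3 differed between the 2 forms of KLF5 by the direct edgeR test of E419Q against WT. Outside the set, IRF1 differed too, while KLF5, NLRC5, PSMB10, PSMB5, PSMB6 and PSMB7, also named whatever their p, were not called. The test also called genes of the surrounding lists such as LNPEP and ERAP2. Over all 12933 genes tested, 1034 were called in either direction and 3.59% were lowered. The log2 difference was -0.49 for HLA-B, -0.53 for B2M and -0.57 for PSMB9 within the set, and -0.51 for IRF1 outside it. The PSMB9 call was lost with DESeq2 (adjusted p = 0.501) and without any one of the 4 libraries compared (edgeR adjusted p from 0.0574 to 0.116). The alternatives were examined for the 9 genes and not for IRF1. Both E419Q libraries lay below both WT libraries for each of the 4 genes, which held for 21.9% of all genes. The 4 were picked by a test on these same libraries, so this separation adds no support. The squamous markers' summed level moved with the same groups, at 12676 to 13260 CPM with E419Q and 18168 to 18804 CPM with WT, most of it KRT5, while CDH1 and EPCAM were higher with E419Q than with WT; their part in these differences was not tested.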

How the results depend on the processing

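With 2 libraries a group in HCC95, leaving out 1 assumes that the lone library varies like the other groups. DESeq2 called 951 genes with WT (edgeR 2962), 963 with E419Q (2737) and 382 for E419Q against WT (1034), and of the 9 genes it called 0 raised and 0 lowered with WT and 3 lowered with E419Q; at an unadjusted p under 0.05 DESeq2 had 2104 genes with WT and edgeR 4499. The DESeq2 fit held 23559 genes, of which 413 rose and 538 fell with WT and 511 fell with E419Q. limma without its trend called 2281 genes with siKLF5 (4097 with it). With WT, upper-quartile scaling gave 4 of the 9 raised and 0 lowered. Over all 12933 genes it gave 1680 raised and 1308 lowered, against 1394 and 1568 in the main fit. Library totals alone gave 3 of the 9 raised and 1 lowered, with 1482 raised and 1470 lowered over all genes. The cause of these shifts was not tested. Deviations of same-letter libraries from their group means were nearly uncorrelated (from -0.03 to 0.03). This cannot show whether libraries of 1 letter were prepared together. With the letter as a replicate block, 2 of the 9 were raised with WT, B2M being the added one (edgeR adjusted p = 0.0444). That block gave 4076 genes called with siKLF5 and 2900 with WT. Leaving out 1 library each gave 3194 to 3608 genes called with siKLF5, with 7 of the 9 raised each time. It gave 1719 to 2792 with WT (0 to 1 of the 9 lowered), 1626 to 2603 with E419Q (3 to 5 lowered) and 597 to 1172 for E419Q against WT (2 to 4 lowered). The direction turned in 3 values that were not called: HLA-E with WT without WT B (0.011, and -0.10 to 0.011 over the libraries left out), HLA-C with WT with the heavy chains summed (-0.012) and PSMB9 with E419Q without Empty A (-0.060, and -0.060 to 0.25 over the libraries left out). HLA-E with E419Q was also not called with library totals alone (edgeR adjusted p = 0.0535). HLA-C for E419Q against WT was called in 6 of 14 alternatives (adjusted p from 9.91e-04 to 0.445 over them). Small changes can be missed at this depth, spread and number of libraries: of simulated 1.5-fold changes, 64.2% to 74.6% were called, and of 2-fold changes 91.0% to 95.5%.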

Other observations

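Of 10 MHC class II genes listed, 5 passed the filter in BICR31, where CD74, the class II invariant chain, rose from 169 ± 13.5 to 340.3 ± 73.8 units with siKLF5 (SD, n = 3; limma log2 fold change 0.98, adjusted p = 0.00262). In HCC95, CD74 stood at 5.88 ± 0.695 CPM in Empty, 2.16 ± 0.570 in WT and 3.90 ± 0.468 in E419Q (SD, n = 2) and was lowered with WT (edgeR log2 fold change -1.45, adjusted p = 0.0129). Among class I-like molecules and ligands of natural killer receptors, 3 of 11 tested rose and 1 fell with siKLF5 in limma: HFE (1.35; adjusted p = 3.77e-04), FCGRT (1.45; adjusted p = 0.00617) and MR1 (0.41; adjusted p = 0.0216) rose, and NCR3LG1 (-1.12; adjusted p = 0.00760) fell. In HCC95, the stress ligand MICB fell with WT (-0.35; edgeR adjusted p = 0.0186) and MICA with E419Q (-0.39; edgeR adjusted p = 0.0257).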
